A study of Mus musculus with 2 samples.

Results

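Endothelial cells line blood and lymph vessels, and a small number of them were present among mammary cells that had been sorted as negative for CD31, the protein that Pecam1 encodes and that such sorts use to remove them. A barcode was called endothelial when at least 4 of 9 genes (Pecam1, Cdh5, Kdr, Emcn, Cldn5, Egfl7, Flt1, Eng and Esam) had 1 or more unique molecular identifiers (UMIs, each standing for 1 captured transcript). It also had to hold at least 1000 UMIs and 500 genes, with at most 20% of UMIs from mitochondrial genes. These were 88 of 15772 kept barcodes, of 18533 deposited. The study compared mammary glands of mice lacking Ehf, which encodes an epithelial transcription factor of the ETS family, with wild-type glands in late pregnancy. The Ehf_KO group (strain EhfKO) and the WT group were adult females at 18.5 days of pregnancy. Each group was 1 library made from the pooled thoracic and inguinal glands of 2 females, after lymph nodes had been removed and cells positive for Ter119, CD31 or CD45 had been sorted out, with no further treatment given in the labels. Whether the deletion was limited to a cell type is not given in the labels, and the labels call the sorted cells mammary epithelial cells.

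Vessel cells are held together by adherens junctions of VE-cadherin (Cdh5) and tight junctions of claudin 5 (Cldn5). Their growth and survival depend on VEGF receptors and on the Tie receptors for angiopoietins. In fat-rich tissue, capillary endothelium moves fatty acids from blood lipoproteins to the cells behind it: Gpihbp1 holds lipoprotein lipase at the vessel wall, Cd36 takes up fatty acids and Fabp4 binds them inside the cell. The lactating gland draws fatty acids for milk fat by this route.

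The libraries gave 240055 UMIs in 24 endothelial barcodes of Ehf_KO and 529208 UMIs in 64 of WT. Endothelial barcodes held a median of 6244 UMIs (1003 to 63327), against 3332 in the 15684 other kept barcodes. The median was 8398 in Ehf_KO and 6032.5 in WT endothelial barcodes. Median mitochondrial shares were 6.30% in endothelial and 5.76% in other barcodes. Between the libraries 25 barcode sequences were shared, and 0 of them were endothelial. All intervals below are exact at 95% and cover counting error only, and levels are CPM, a gene's UMIs over all UMIs of the same barcodes on the usual scale. With 1 library per genotype no test between genotypes was possible. As the cells were chosen on their own expression, comparisons with other cells are a description without a test.

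Endothelial barcodes made up 0.366% (0.235 to 0.544, Clopper-Pearson) of Ehf_KO and 0.695% (0.535 to 0.886) of WT kept barcodes. The share was lower in the Ehf_KO library, and the intervals meet over a narrow range. A difference in the gland and one in how completely the sort removed vessel cells cannot be told apart. By the rule's own genes, 15325 kept barcodes had none of the 9 genes, 343 had 1, 11 had 2, 5 had 3, and 31 had all 9. Just inside the limit stood 7 barcodes with 4 genes, with 3 to 9 of 24 endothelial genes that the rule did not use (median 7). Just outside it stood the 5 barcodes with 3 genes, with 0 to 6 of those genes (median 4). Of 15 capillary genes, the 7 barcodes inside had 1 to 9 and the 5 outside 3 to 10, with a median of 6 in both.

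Of the genes that chose the cells, Cdh5 had 835 UMIs in 83 barcodes, Cldn5 413 UMIs in 75 barcodes, Egfl7 396 UMIs in 81 barcodes and Esam 350 UMIs in 73 barcodes. Pecam1 had 278 UMIs in 75 barcodes, 120 UMIs in 21 Ehf_KO barcodes and 158 in 54 WT barcodes, while 0.300% of other barcodes had a UMI of it. Kdr, the main VEGF receptor, had 225 UMIs, Emcn 215, Eng 178 and Flt1 151. These values follow from the rule and are given as a description. CD31 protein was not measured in these files.

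Endothelial genes outside the rule marked the same barcodes. A gene with at least 20 UMIs over all kept barcodes was counted as higher or lower at a 4-fold difference in level. Over all 15637 such genes, 1431 (9.15%) were higher in endothelial barcodes and 446 (2.85%) were lower, with a median log2 ratio of 0.10. Scaling to UMIs outside milk protein genes lowered every ratio by 0.18 (log2). Of 23 endothelial genes outside the rule, 21 were higher and 1 was lower, with a median log2 ratio of 8.18. S1pr1, the sphingosine 1-phosphate receptor of vessels, stood at 513 CPM in endothelial barcodes and 0.375 CPM in the others, a log2 ratio of 10.42, 9.90 to 10.99. Ptprb, the phosphatase that restrains Tie2, stood at 473 CPM in endothelial barcodes and 0.211 CPM in the others. Ramp2, the partner of the adrenomedullin receptor, stood at 338 CPM in endothelial barcodes and 1.72 CPM in the others. These 3 genes had UMIs in 76, 71 and 67 of 88 barcodes, and in 0.172%, 0.115% and 0.771% of other barcodes. The member that was lower was the prostaglandin transporter Slco2a1 (log2 -2.16), and Ecscr did not reach 4-fold (1.85). Each of the 88 barcodes had at least 3 of the 24 genes (median 13), against 2.40% of other barcodes. Thinned to 1000 UMIs, these were 71 endothelial barcodes and 12 of the 15684 others. Leaving out the 46 barcodes that also held genes of other cell types, described below, the list's median was 8.95.

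**Figure D1:**
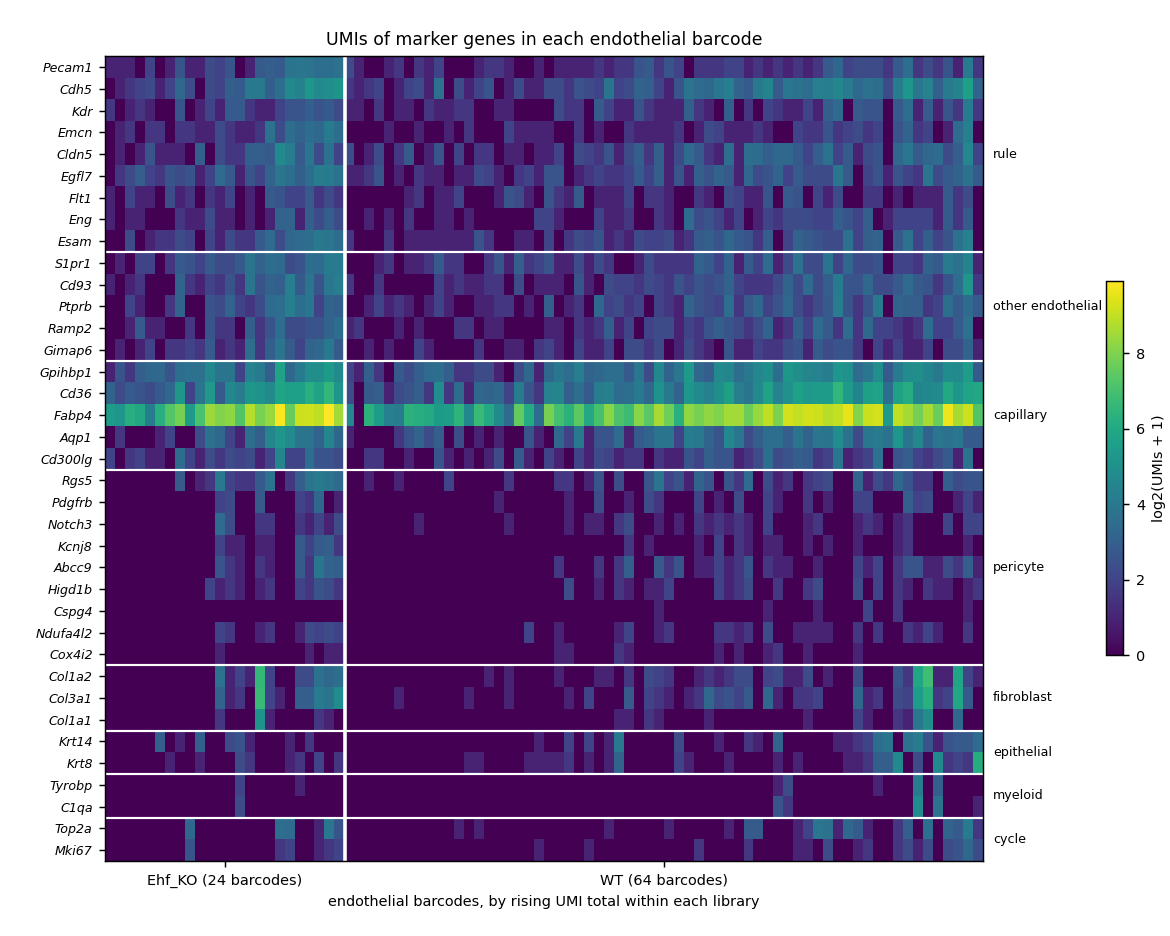
UMIs on a log2(UMIs + 1) colour scale for marker genes (rows, grouped by the cell type they mark) in each of the 88 endothelial barcodes (columns), Ehf_KO on the left and WT on the right, each by rising UMI total. Fabp4 is the brightest row in both libraries, while pericyte genes such as Pdgfrb and Abcc9 appear in a part of the columns, mostly those with many UMIs.

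The 30 genes with the highest ratio included vessel receptors, transcription factors and lipid handling genes. They were taken from genes outside the rule with at least 50 UMIs in at least 10 endothelial barcodes and the same direction in both libraries, leaving out classes such as ribosomal and haemoglobin genes. The adhesion receptor gene Adgrl4 (ELTD1) had 131 UMIs in 58 endothelial barcodes and 1 UMI in all others. Sox17, a transcription factor of arterial and developing endothelium at chr1:4490928-4497426, had 109 UMIs against 3, a log2 ratio of 11.98, 10.39 to 14.28. Myct1 had 76 UMIs in 36 barcodes and 0 in the others, which puts its log2 ratio at 11.46 or above when 3 counts are taken as the floor over the group. Among the rest were Cd93 (log2 11.13), Tie1 (10.87), the guidance receptor gene Robo4 (10.07), the apelin receptor gene Aplnr (10.27), Bcl6b (9.92) and the GTPases Gimap4 (10.93) and Gimap6 (10.44). Madcam1, the mucosal addressin that binds lymphocytes carrying integrin α4β7, at chr10:79664559-79668542, had 247 UMIs in 46 barcodes against 11 UMIs in all others (log2 11.28, 10.42 to 12.30). Per barcode its lowest, median and highest levels were 0, 0 and 956 CPM in the 24 Ehf_KO barcodes, against 0, 170.3 and 2002 CPM in the 64 WT barcodes. The 30 log2 ratios ran from 9.54 for Apold1 up to 13.83 for Adgrl4. The value of Adgrl4 rests on its 1 UMI in other barcodes and ran from 11.57 to 15.17 over 14 alternatives. As Myct1 is a bound at 3 counts, these 2 genes cannot be ranked against each other.

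**Figure D2:**
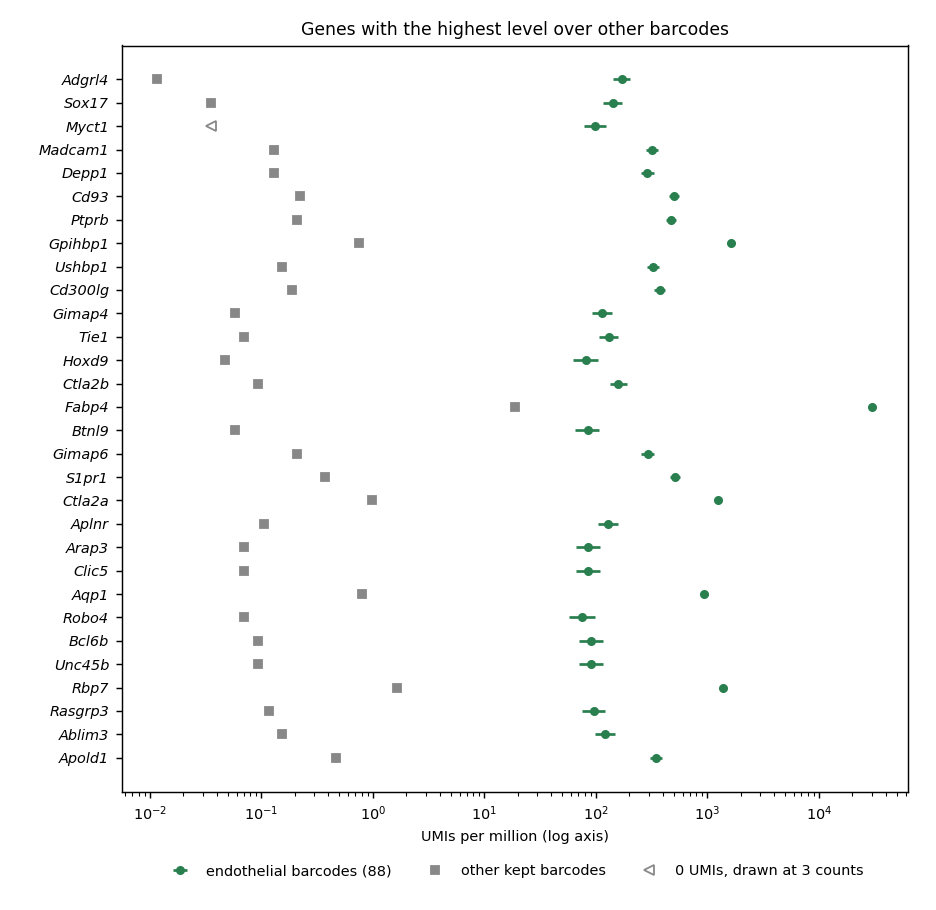
Levels in CPM (log axis) of the 30 genes with the highest ratio, in the 88 endothelial barcodes (green circles with exact Poisson 95% intervals) and in the 15684 other kept barcodes (grey squares). Fabp4 is the most abundant of them, and Myct1, with 0 UMIs in other barcodes, is drawn at 3 counts.

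ETS factors such as Fli1, Erg and Ets1 are known regulators of endothelial genes, so the promoters of the 30 genes were searched for a 6-letter ETS core, AGGAAG, on both strands (CTTCCT on the reverse). RefSeq windows (GRCm38.p6) of 250 bases before to 50 after each start were at hand for 19 of the 30 genes. The core was found in 14 of these (73.7%), against 38.4% of all 27025 genes with a window. A motif of GATA factors was searched as AGATAA. On the reverse strand that motif reads TTATCT. Neither motif contains the other, and the second was found in 2 of 19 (10.5%), against 12.7% of all genes. In 9 of the 19 genes an ETS core began within the last 50 bases before the start (47.4%, against 9.12% of all genes), a distance chosen after the matches were seen. A match is a description of the letters and not a bound site. The 250 bases before the start are shown, 5′ to 3′ and with the core in capitals, for the 3 genes highest by ratio whose window holds a whole core before the start.
Adgrl4, chr3:151437632-151437881, plus strand: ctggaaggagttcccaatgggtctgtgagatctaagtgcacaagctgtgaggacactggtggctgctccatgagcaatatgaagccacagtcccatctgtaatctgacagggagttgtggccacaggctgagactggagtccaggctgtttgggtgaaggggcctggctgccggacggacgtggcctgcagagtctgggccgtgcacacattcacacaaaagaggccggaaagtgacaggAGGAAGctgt
Madcam1, chr10:79664309-79664558, plus strand: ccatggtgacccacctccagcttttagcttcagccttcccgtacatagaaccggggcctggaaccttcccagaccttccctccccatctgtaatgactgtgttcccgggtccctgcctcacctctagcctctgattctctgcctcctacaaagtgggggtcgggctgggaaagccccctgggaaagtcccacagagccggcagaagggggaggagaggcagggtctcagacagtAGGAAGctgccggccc
Ushbp1, chr8:71395802-71396051, minus strand: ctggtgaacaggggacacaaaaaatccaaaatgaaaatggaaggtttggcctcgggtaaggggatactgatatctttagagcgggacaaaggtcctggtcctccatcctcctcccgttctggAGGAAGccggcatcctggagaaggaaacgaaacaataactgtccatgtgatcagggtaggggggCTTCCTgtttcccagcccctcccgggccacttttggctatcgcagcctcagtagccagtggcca

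Genes of capillary endothelium and lipid transport took the largest share of UMIs among the lists read, after milk protein genes (4.80%). The list of 15 genes took 3.87% of endothelial UMIs and 0.0694% of those of other barcodes, and 14 of 15 genes were at least 4-fold higher (median log2 7.44, and 7.29 without the 46 barcodes that held genes of other cell types). Fabp4 alone, at chr3:10204342-10208616, had 22884 UMIs. It was found in 87 of 88 barcodes, at 29748 CPM in endothelial barcodes and 18.8 CPM in the others (log2 10.63, 10.56 to 10.71). Its lowest, median and highest levels per barcode were 5101, 28692 and 55730 CPM in the 24 Ehf_KO barcodes, against 0, 33349 and 74969.8 CPM in the 64 WT barcodes. The single barcode without Fabp4 was in the WT library and carried lymphatic genes, described below.

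Gpihbp1, at chr15:75596630-75598213, had 1268 UMIs in 86 barcodes, at 1648 CPM in endothelial barcodes and 0.750 CPM in the others (log2 11.10, 10.74 to 11.49). Per barcode it ranged over 341, 1581 and 3741 CPM in the 24 Ehf_KO barcodes, against 0, 1868 and 6615 CPM in the 64 WT barcodes, as lowest, median and highest. The ranges overlapped, with the highest WT barcode above all Ehf_KO barcodes. Lpl, the lipase that Gpihbp1 holds, differed little, with 342 CPM in endothelial barcodes and 376 CPM in the others (log2 -0.14, -0.32 to 0.04), and its 32100 UMIs outside these cells show how widely other mammary cells carried it. Cd36 (3.91) and Fabp5 (3.99) were higher than in the other barcodes but were found there too, at 188 and 96.6 CPM. Aqp1, a water channel, had 721 UMIs in 72 barcodes, Rbp7, a retinol-binding protein gene, 1068 UMIs in 81 barcodes, and Cd300lg 288 UMIs in 72 barcodes. The transcription factor genes Pparg (123 UMIs, log2 9.21), Meox2 (67, 8.95) and Tcf15 (46, 5.16) were higher as well.

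Fabp4 and Pparg also mark fat cells, so fat cell genes were read beside them. Adipoq had 3 UMIs in the 88 barcodes, Plin1 0, Cidec 2, Lep 2, Retn 6, Cfd 23, Car3 24 and Plin4 6. With Fabp4 these make a list of 9, of which 5 had enough UMIs to be compared. Of the 5, 3 were higher than in other barcodes and 0 lower (median log2 6.92). At least 4 of the 9 were found in 1 endothelial barcode, in Ehf_KO, and in 0 of the 15684 others. At least 3 genes of the capillary list were found in 87 of 88 barcodes, and in 85 after thinning to 1000 UMIs. In other barcodes the shares were 11.7% and 0.542%. The list held 1 gene, Kcnj8, that is also on the pericyte list below.

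Arterial and venous genes were found in the same barcodes. Of 12 arterial genes 7 were higher and 1 lower (median log2 2.61, or 2.91 with Hey2 at its bound), and of 13 venous genes 9 were higher and 1 lower (median 2.56). The arterial members were led by Nrp1, a VEGF co-receptor, with 476 UMIs (log2 7.71), Sox17, and the Notch ligand gene Dll4 with 61 UMIs in 41 barcodes (9.40). The connexin gene Gja4, of arteries and arterioles, had 24 UMIs in 21 barcodes (5.55), while Gja5, of larger arteries, had 0. Of the 21 barcodes with Gja4, 17 also held at least 4 pericyte genes. The venous members were led by Tmem252 with 244 UMIs in 49 barcodes and by Nr2f2 (COUP-TFII), the factor that sets venous identity, with 142 UMIs in 47 barcodes (log2 4.82, 4.55 to 5.09). Venule genes were sparse: Selp had 28 UMIs in 6 barcodes, Sele 19 UMIs in 9 barcodes, Ackr1 8 UMIs in 6 barcodes and Vwf 23 UMIs in 12 barcodes. Of the 88 barcodes, 51 had Sox17 and 47 had Nr2f2. Both were found in 32, which is 62.7% of those with Sox17 and 68.1% of those with Nr2f2. Whether that is more than their separate counts and depth would give was not tested. At least 4 pericyte genes were held by 31 of the 47 with Nr2f2, 26 of the 51 with Sox17 and 38 of all 88. They were also held by 5 of 6 barcodes with Selp, 4 of 9 with Sele, 5 of 6 with Ackr1 and 11 of 12 with Vwf. At least 3 arterial genes were found in 66 of 88 barcodes and at least 3 venous genes in 30. After thinning to 1000 UMIs these counts were 12 and 2. In other barcodes the shares with at least 3 genes were 10.9% and 1.12%, and 0.689% and 0.0255% after thinning.

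Markers of lymphatic endothelium were sparse. Prox1, the factor that defines it, had 1 UMI, and of the 10 lymphatic genes tested 3 were higher and 1 lower (Pdpn, -2.36). The higher ones were Nrp2 (5.33), Flt4 (10.04) and Ccl21a (9.76). The list's median log2 ratio was -0.84 (0.26 with genes at 0 put at their bound). All 39 UMIs of Ccl21a, a chemokine of lymphatic vessels, came from 1 WT barcode of 1036 UMIs, which also had 5 of Lyve1, 2 of Mmrn1, 1 of Gpihbp1 and 0 of Fabp4. Nrp2 was found in 46 barcodes and Flt4 in 17, and all 17 of these had Gpihbp1.

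Receptors of vessel growth were higher in endothelial barcodes, and most of the ligands were not. Of 15 VEGF and angiopoietin genes outside the rule, 8 were higher and 3 lower (median log2 2.12). The angiopoietin receptor genes Tek (Tie2; 89 UMIs in 51 barcodes, log2 8.18) and Tie1 (101 UMIs in 46 barcodes) stood beside the VEGF co-receptors Nrp1 and Nrp2. Among ligands, Angpt2, the Tie2 ligand made by endothelial cells, was higher with 34 UMIs in 16 barcodes (6.97). Of its UMIs, 28 lay in the 38 barcodes with pericyte genes, described below, and 6 in the other 50. In barcodes with pericyte genes and no endothelial call it stood at 78.2 CPM. Vegfa (-2.05), Pgf (-3.03) and Angpt1 (-2.29) were lower: Vegfa stood at 22.1 CPM in endothelial barcodes and 91.3 CPM in the others. Of 14 tip cell and angiogenic genes, which mark sprouting vessels, 7 were higher and 1 lower (median 1.92). The tip cell gene Esm1 had 6 UMIs in 1 barcode, Apln had 45 UMIs in 18 barcodes (log2 2.08) and its receptor gene Aplnr 100 UMIs in 46 barcodes.

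Of 13 Notch genes 5 were higher and 0 lower (median log2 1.61, or 1.84 with Hey2 at its bound). These were Dll4, Notch4, the endothelial Notch receptor gene (48 UMIs in 35 barcodes, 6.71), Heyl (4.67), Nrarp (4.14) and Hey1 (2.96), the last 3 known targets of the pathway. Of the Heyl UMIs, 13 lay in the 38 barcodes with pericyte genes and 1 in the other 50. Of 13 BMP and TGF-β genes outside the rule 8 were higher and 0 lower (median 2.40). Id1, a BMP target, had 469 UMIs in 65 barcodes (5.46, 5.31 to 5.62) and Id3 326 UMIs in 71 barcodes (3.46), while Id2 did not reach 4-fold (-0.34). Acvrl1 (ALK1), the endothelial receptor for BMP9 and BMP10, had 27 UMIs in 23 barcodes (2.49).

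Of 22 endothelial transcription factor genes 16 were higher and 0 lower (median log2 4.16). Fli1 had 224 UMIs in 67 barcodes (8.58), Sox7 140 UMIs in 48 barcodes (8.75), Hhex 31 UMIs in 21 barcodes (9.16) and Erg 12 UMIs in 10 barcodes (8.79). Klf2, induced by blood flow, was the most abundant with 529 UMIs but stood only 2.50 above other barcodes on the log2 scale, and Klf4 0.45. Of the 21 measured members of the ETS family, to which Ehf belongs, 4 were higher (Fli1, Erg, Ets1 at 3.65 and Elk3 at 2.62) and 2 lower (Ehf and Elf5, another epithelial factor, at -2.56). The median over the family was 0.30 (0.71 with genes at 0 put at their bound).

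Genes of vessel wall functions were also read by list. Of 11 leukocyte adhesion genes outside the rule 7 were higher and 1 lower (median log2 3.53). Madcam1, Icam2 (113 UMIs in 54 barcodes, 9.15) and Cd34 (144 UMIs in 49 barcodes, 4.96) were higher. The inducible Icam1 (-0.45) and Vcam1 (30 UMIs in 9 barcodes, 0.79) did not reach 4-fold, and Glycam1, a milk protein gene in this tissue, was the lower one (-2.31). Of 12 coagulation genes 9 were higher and 0 lower (median 3.71), among them thrombomodulin (Thbd, 69 UMIs in 30 barcodes, 5.06), tissue factor pathway inhibitor (Tfpi, 5.15) and F8 (16 UMIs in 11 barcodes, 4.55).

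Of 14 vascular tone genes 9 were higher and 0 lower (median log2 2.48, or 2.59 with Ptgis at its bound). Endothelial nitric oxide synthase (Nos3) had 25 UMIs in 19 barcodes (6.27), the endothelin receptor gene Ednrb 119 UMIs in 51 barcodes (4.88) and the adrenomedullin receptor gene Calcrl 50 UMIs in 26 barcodes (6.31). Endothelin 1 itself (Edn1) did not reach 4-fold (0.84). Of 12 caveola and transcytosis genes 8 were higher and 1 lower (median 2.40). They were led by Cav1 with 995 UMIs (2.71), Cavin2 with 895 (3.91) and Plvap, which forms the diaphragms of fenestrated capillaries, with 146 UMIs in 50 barcodes (7.44). The lower one, Mfsd2a, a lipid transporter that suppresses transcytosis in brain vessels, stood at -2.29. Of 12 junction genes outside the rule 4 were higher and 2 lower (median 1.08), the lower ones being Ocln (-2.79) and Lsr (-4.64), both of epithelial tight junctions.

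Of 14 basement membrane genes 6 were higher and 0 lower (median log2 1.78), with Sparcl1 (500 UMIs, 7.97) and Col15a1 (200, 6.06) leading, while the abundant Col4a1 (1420 UMIs, 1.76) did not reach 4-fold. Of 16 growth factor and angiocrine genes 5 were higher and 2 lower (median 0.55, which ran from -0.51 to 0.62 under 14 alternatives), led by Igfbp7 with 1445 UMIs (5.01). Of 16 MHC and interferon genes 9 were higher and 0 lower (median 2.53). Ly6c1 (449 UMIs, 7.15), Ly6a (337, 4.94) and the interferon-induced GTPase Iigp1 (484, 4.60) were spread over 79, 72 and 73 barcodes. The MHC class II genes Cd74 (300 UMIs in 9 barcodes) and H2-Aa (180 in 10) came from few, and 5 of the 9 with Cd74 had at least 4 myeloid genes. Of 10 hormone receptor genes 0 were higher and 1 lower (median -0.67, or -0.00053 with Esr1 at its bound). The lower one was the prolactin receptor gene Prlr, with 9 UMIs in 4 barcodes, while Esr1 had 0 and Nr3c1, the glucocorticoid receptor gene, had 128 UMIs in 55 barcodes. None of 16 immediate early and heat shock genes, which cell dissociation induces, reached 4-fold either way (median 0.19).

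Some list medians moved when the 46 barcodes that held genes of other cell types were left out. That of arterial genes was 3.93, of lymphatic genes -2.80, of coagulation genes 2.70, of endothelial transcription factors 3.36, of MHC and interferon genes 2.01 and of hormone receptor genes -2.43. The part of the other cells in these lists was not tested beyond those values.

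**Figure D3:**
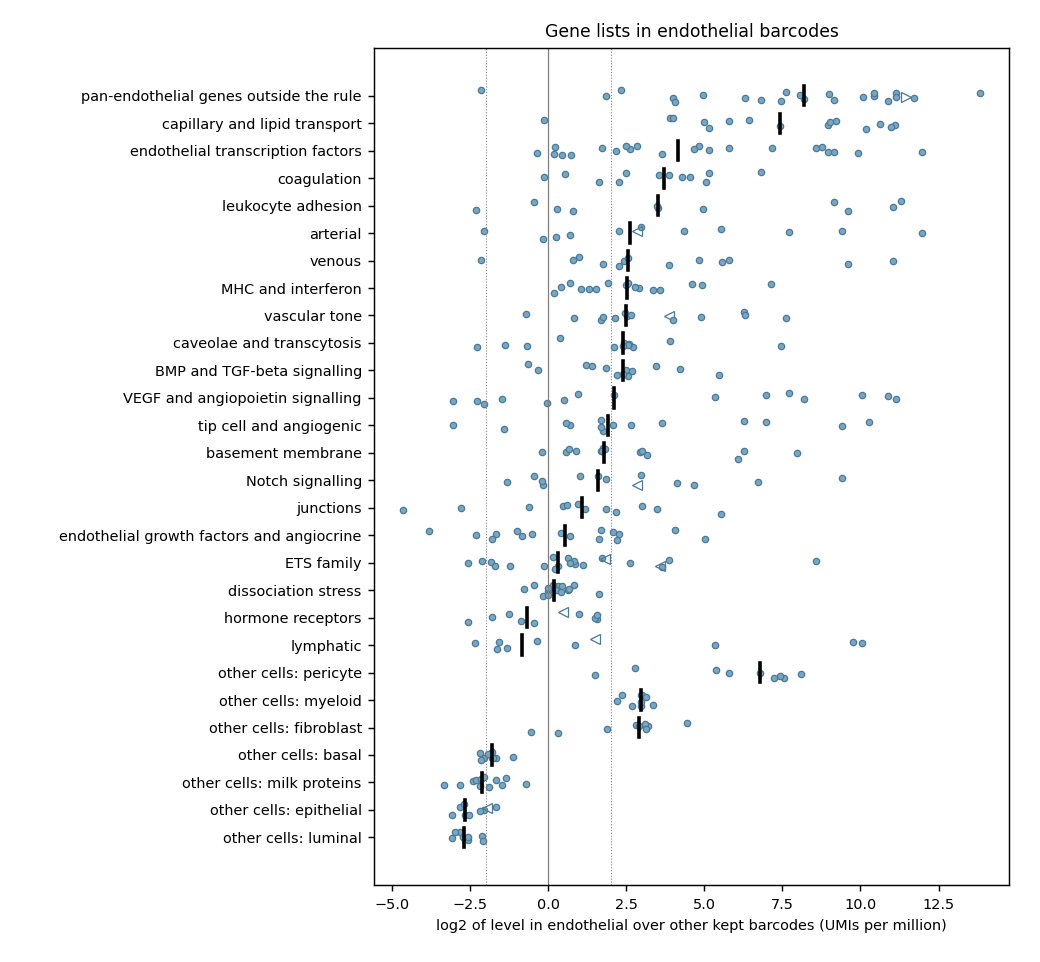
Log2 of the level in endothelial over other kept barcodes for each measured gene (points) of 28 lists, leaving out the rule genes, with the list median as a black bar and 4-fold marked by dotted lines. Open triangles are genes with 0 UMIs on 1 side, drawn at 3 counts, pointing the way the true value lies. Endothelial, capillary and pericyte lists lie to the right and epithelial, luminal and milk protein lists to the left.

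Set against the other stromal cells, 93 barcodes with at least 4 of 9 fibroblast genes and no endothelial call, 440 of 6901 genes (6.38%) were at least 4-fold higher in endothelial barcodes, with a median log2 ratio of 0.08. These included 15 of 22 endothelial genes outside the rule (median 4.52, or 3.37 with genes at 0 put at their bound) and 12 of 14 capillary genes. Of 14 basement membrane genes 0 were higher and 4 lower (median -1.32). Of 11 coagulation genes 2 were higher and 3 lower (median -0.65), and of 13 vascular tone genes 3 and 2 (0.16). Of 10 BMP and TGF-β genes, the rule gene included, 3 were higher and 1 lower (-0.21). Of 16 MHC and interferon genes 3 were higher and 0 lower (0.29). Of 18 endothelial transcription factor genes 8 were higher and 0 lower (1.77). The share of all genes that were lower was not counted here, so the counts of lower genes cannot be set against it. All 9 fibroblast genes were lower, which the choice of the fibroblast barcodes fixes.

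Transcripts of dividing cells were detected in a part of the endothelial barcodes. A barcode was counted as cycling with at least 3 UMIs of 8 cell cycle genes such as Top2a and Mki67. After thinning to 1000 UMIs these were 6 of 88 endothelial barcodes (6.82%, 2.54 to 14.3), 2 of 24 in Ehf_KO and 4 of 64 in WT, against 2.64% (2.39 to 2.90) of other barcodes. With all UMIs they were 25 of 88 (28.4%) against 7.89%. Of the 6 after thinning, the 4 in WT all lay in barcodes with pericyte genes, described below. The 2 in Ehf_KO lay in barcodes without them. Of the 25, 17 lay in the 38 barcodes with pericyte genes and 8 in the other 50. Top2a was found in 28 and Mki67 in 23 endothelial barcodes. None of the 8 genes reached 4-fold over other barcodes (median log2 0.83), while 7 of 7 tested were higher than in fibroblast barcodes (median 2.51).

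Many endothelial barcodes also held the genes of pericytes, the contractile cells that wrap capillaries. Of 9 pericyte genes, 8 were at least 4-fold higher than in other barcodes (median log2 6.79). Set against the 93 fibroblast barcodes, 0 of 8 tested were higher and 0 lower (median 0.44). At least 4 of the 9 were found in 38 of 88 endothelial barcodes (43.2%, 32.7 to 54.2), 10 of 24 in Ehf_KO and 28 of 64 in WT. Over all kept barcodes 61 reached that number, so 62.3% of them were endothelial by the rule. The count depends on depth: the 38 had a median of 10411.5 UMIs against 3415 in the other 50. After thinning to 1000 UMIs, 4 of 88 reached 4 pericyte genes. Among the 93 fibroblast barcodes 13 (14.0%) reached 4 pericyte genes, and 5 after thinning. The pericyte list's share of UMIs per barcode ran from 0% to 0.494% in endothelial barcodes, with 29 barcodes at 0, and from 0% to 1.51% in the others.

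The split was sharp for single genes. Pdgfrb, the receptor by which pericytes are recruited, had 79 UMIs in the 38 barcodes with pericyte genes and 2 in the other 50, Kcnj8, a potassium channel gene, 50 and 0, and its partner Abcc9 117 and 10. Rgs5 was less tied to them, with 218 and 40 UMIs. These genes chose the 38 barcodes, so their difference is no finding. Among 2350 genes with at least 50 UMIs in endothelial barcodes, 19 (0.809%) were at least 4-fold higher in the 38, with a median log2 ratio over all genes of -0.01. Of these 19, 6 were pericyte list genes, of 7 tested, and were higher through the choice of the barcodes. The highest outside the pericyte list were the collagen VI gene Col6a2 (87 and 7 UMIs, log2 2.73, 1.63 to 4.09), Cpe (2.68), Meg3 (2.65), Gucy1a1, a subunit of the nitric oxide receptor of mural cells (2.64), Steap4 (2.62) and Col6a1 (2.50). The 24 endothelial genes outside the rule took 0.400% of UMIs in the 38, 0.507% in the other 50 and 0.0430% in the 23 barcodes with pericyte genes and no endothelial call. The pericyte list took 0.136%, 0.0246% and 0.396% in the same 3 sets. Whether each such barcode held an endothelial cell joined to a pericyte, 2 cells in 1 droplet or 1 cell with both sets of transcripts was not tested.

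**Figure D4:**
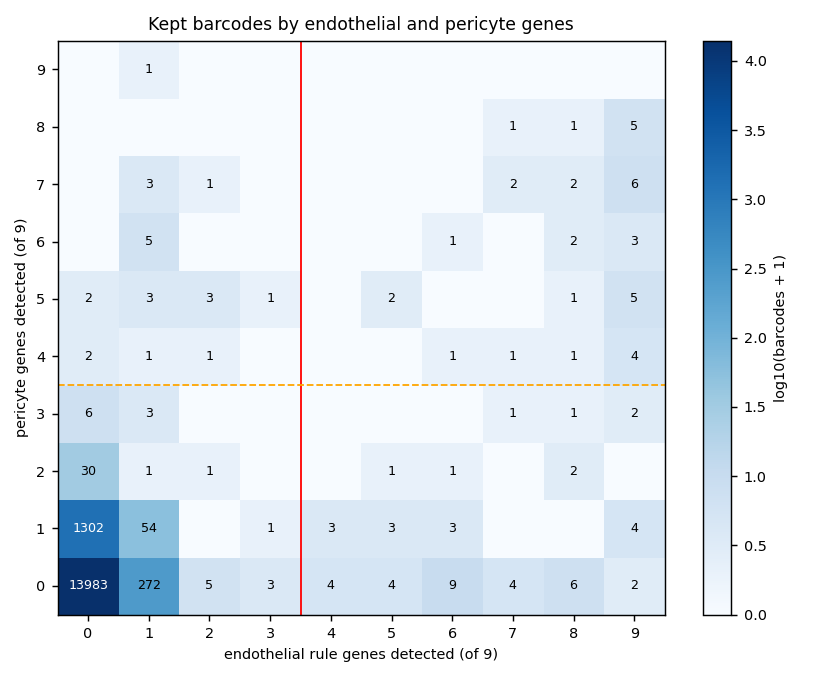
Number of kept barcodes (figures in the cells, colour as log10 of barcodes + 1) by how many of the 9 endothelial rule genes (x axis) and of the 9 pericyte genes (y axis) were detected. The red line is the endothelial limit and the dashed line the pericyte limit. The 38 barcodes beyond both lines lie mainly at 7 to 9 endothelial genes.

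Genes of other cell types were found as well. At least 4 of 9 fibroblast genes were detected in 23 endothelial barcodes, of which 20 had the pericyte genes too. Lum, which marks fibroblasts, had 71 UMIs in 4 barcodes, against 467 UMIs of Col3a1 in 43. At least 4 of 9 epithelial genes were detected in 18, 2 of 24 in Ehf_KO and 16 of 64 in WT, and at least 4 of 9 myeloid genes in 5. The lists took 0% to 2.68% of UMIs per endothelial barcode and 0% to 15.1% per other barcode for fibroblast genes, 0% to 0.498% of UMIs per endothelial barcode and 0% to 3.91% per other barcode for epithelial genes and 0% to 0.899% of UMIs per endothelial barcode and 0% to 3.99% per other barcode for myeloid genes. The epithelial gene Krt7 had 0 UMIs in endothelial barcodes. The T cell genes Cd3e and Cd3d had 0 UMIs, and haemoglobin Hbb-bs (526 UMIs) came from 5 WT barcodes, with 253 UMIs in 1 of them. A list of 9 red cell and platelet genes took up to 34.0% of the UMIs of a WT endothelial barcode. At least 4 of them were found in 3 WT endothelial barcodes and in 0 of the 15684 others. No alternative left out barcodes for these genes. In all, 42 barcodes (13 in Ehf_KO and 29 in WT) had fewer than 4 genes of each of 4 lists, pericyte, fibroblast, epithelial and myeloid. Basal genes, which include smooth muscle genes such as Acta2 and Myh11, reached 4 of 9 in 27 of 88 endothelial barcodes (15 after thinning), against 78.4% of other barcodes (71.5% after thinning). They did so in 6 of the 42, 2 in Ehf_KO and 4 in WT. The closing section gives values without barcodes that held genes of the 4 lists. No alternative left out barcodes for their basal genes. The part of other cell types in the results was not tested beyond those values.

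RNA of milk proteins took a lower share in the Ehf_KO library, in endothelial and in other barcodes. The 12 genes took 0.142% of endothelial UMIs in Ehf_KO and 6.91% in WT, and 3.65% and 25.9% of the UMIs of other barcodes. The median per endothelial barcode was 0.135% in Ehf_KO and 1.10% in WT. A single WT barcode of 63327 UMIs, with 5 rule genes and 8 of 9 epithelial genes, held 25598 of the 36550 milk protein UMIs. Without it the WT share was 2.35%.

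Endothelial genes were read between the libraries by count and level. Among 2350 genes with at least 50 UMIs in endothelial barcodes, 60 (2.55%) were at least 2-fold higher in Ehf_KO than in WT endothelial barcodes and 88 (3.74%) at least 2-fold lower. The median log2 ratio over these genes was 0.10. Scaled to UMIs outside milk protein genes, which lowers every ratio by 0.10 (log2), these were 33 and 112, and without the WT barcode of 63327 UMIs they were 35 and 79. Of 20 endothelial genes outside the rule 1 was higher and 0 lower, of 13 capillary genes 1 and 0, and of 14 transcription factor genes 0 and 0. With so few genes in each list, these counts do not stand apart from the shares over all genes. The median log2 ratios were 0.45 for the endothelial, 0.006 for the capillary and 0.37 for the transcription factor genes. The endothelial list took 0.530% of UMIs in Ehf_KO and 0.395% in WT, and the capillary list 3.81% and 3.90%. Fabp4 stood at 29356 CPM (28674 to 30049) in Ehf_KO and 29926 CPM (29462 to 30396) in WT. Gpihbp1 stood at 1537 CPM (1384 to 1702) in Ehf_KO and 1699 CPM (1589.5 to 1814) in WT, and Cdh5 at 1099.8 CPM (971 to 1241) in Ehf_KO and 1079 CPM (992 to 1171) in WT. The intervals of these 3 genes overlapped between the libraries. Cdh5 is a rule gene, so its level is given as a description. Over all 2350 genes, intervals lay apart for 233 with the higher level in Ehf_KO and for 111 with the lower. As a description too, the rule gene Pecam1 stood at 499.9 CPM (414 to 598) in Ehf_KO and 299 CPM (254 to 349) in WT. The rule gene Emcn stood at 437 CPM (358 to 529) in Ehf_KO and 208 CPM (171 to 251) in WT. For Pecam1 and for Emcn the intervals lay apart. Madcam1 stood at 242 CPM (183 to 312) in Ehf_KO and 357 CPM (308 to 412) in WT, with intervals that overlapped. Of the 30 genes with the highest ratio, Depp1 (1.21) and Apold1 (1.16) were at least 2-fold higher in Ehf_KO, and Btnl9, with 12 UMIs in Ehf_KO and 53 in WT, was just past 2-fold lower. How far 2 pools of the same genotype would differ was not measured.

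The 8 genes highest in Ehf_KO over WT endothelial barcodes were Kcnj8, Lrrc17, Socs1, Gsn, Tmem252, Cenpf, Garre1 and Calcrl. Kcnj8 had 31 UMIs in 10 Ehf_KO and 19 in 14 WT barcodes (log2 1.85), and all of its UMIs lay in barcodes with pericyte genes. Socs1, a suppressor of cytokine signalling, had 49 UMIs in 14 Ehf_KO and 37 in 18 WT barcodes (1.55). Tmem252 stood at 558 CPM (468 to 661) in Ehf_KO and 208 CPM (171 to 251) in WT (1.43), and Calcrl had 27 and 23 UMIs (1.37). Calcrl turned to the lower side, at -0.38, once barcodes with pericyte, fibroblast or myeloid genes were left out. Over the alternatives with a value, Lrrc17 (log2 1.78) ran from 0.04 to 2.02 and Gsn (1.47) from 0.20 to 1.93.

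The 8 lowest were Fabp3, Btn1a1, Plet1, Apoc1, Ctss, Cd74, Lao1 and Scd1, of which Fabp3, Btn1a1 and Scd1 act in milk fat synthesis and secretion in the secretory epithelium. Fabp3 had 2 UMIs in Ehf_KO and 518 in 39 WT endothelial barcodes (log2 -6.88), and 352 of the WT UMIs were in the barcode of 63327 UMIs. Without that barcode its log2 ratio was -5.42, that of Btn1a1 -3.29 (against -5.43 with it), that of Plet1 -2.95 (against -4.67), that of Lao1 -3.17 (against -4.07) and that of Scd1 -2.07 (against -3.68). The macrophage genes Ctss and Cd74 had 1 and 7 UMIs in Ehf_KO, against 52 UMIs in 4 and 293 in 8 WT barcodes. Of 11 milk protein genes tested 10 were lower and 0 higher, and of 6 basal genes 6 were lower. Without the barcodes that held genes of any of the 4 other cell types, the ratio of Plet1 was 0.0042. Milk protein genes are those of the epithelium, while the basal list also holds smooth muscle genes such as Acta2 and Myh11. The basal list took 0.135% of endothelial UMIs in Ehf_KO and 0.509% in WT. In other barcodes it went the other way, at 1.56% in Ehf_KO and 1.09% in WT. The cause was not tested.

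**Figure D5:**
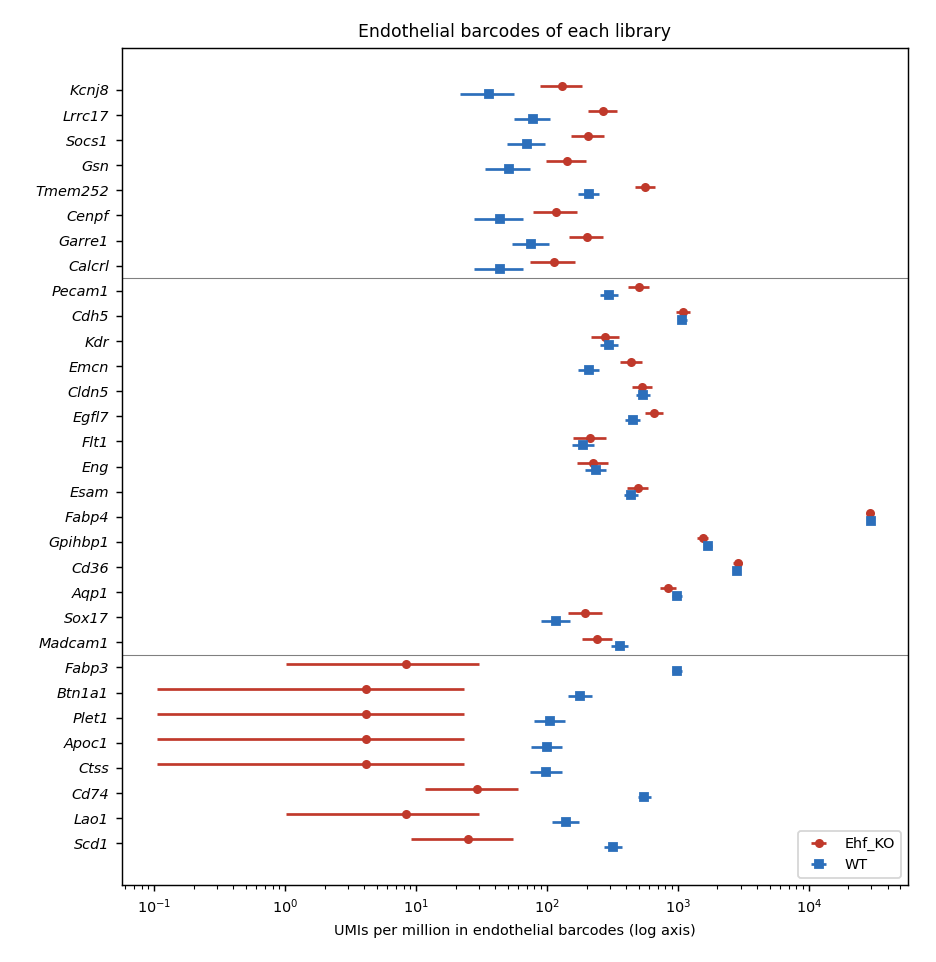
CPM (log axis) in Ehf_KO (red circles) and WT (blue squares) endothelial barcodes, with exact Poisson 95% intervals, for the 8 genes highest in Ehf_KO over WT (top), the rule genes and 6 capillary or adhesion genes (middle) and the 8 lowest (bottom). Fabp4, Gpihbp1 and the rule gene Cdh5 overlap, while the rule genes Pecam1 and Emcn lie apart, higher in Ehf_KO. Fabp3 and Btn1a1 are far lower in Ehf_KO.

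Ehf itself had 0 UMIs in the 24 Ehf_KO endothelial barcodes (0 CPM, 0 to 15.4), which does not limit the share of cells expressing it. The floor of 3 counts stands there at 12.5 CPM, or 12.5% of barcodes. Ehf had 10 UMIs in 5 of 64 WT endothelial barcodes (18.9 CPM, 9.06 to 34.8), and all 5 of these had at least 4 epithelial genes. In other barcodes it stood at 30.4 CPM in Ehf_KO and 78.4 CPM in WT, so Ehf transcripts were still counted in the library labelled Ehf_KO. A 3′ count outside a deleted part does not check a deletion, and the deleted part is not given in the labels.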

How the data were processed

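The deposited files hold raw counts of UMIs per gene and barcode for 1 Ehf_KO and 1 WT library, made with a 10x Chromium 3′ kit of version V3, per the labels. The submitters' processing notes name Seurat 4.0.4 and the build GRCm38 (mm10). The aligner and counter were not given in the sources used here.

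Counts were summed over the endothelial and the other kept barcodes and divided by all UMIs to give CPM. Ratios have exact conditional intervals, levels exact Poisson and shares Clopper-Pearson intervals, all at 95%. A level of 0 was set to 3 counts over the group, so such a ratio is a bound. Genes with at least 20 UMIs (50 UMIs in endothelial barcodes for Ehf_KO over WT) were compared, and a fold of 4 (2 for Ehf_KO over WT) was counted. Python 3.11.15, numpy 2.4.6, pandas 2.3.3, scipy 1.17.1 and matplotlib 3.10.9 were used. The ratios were tested on simulated Poisson counts with planted changes. Those counts hold no spread between barcodes or animals, so they check the arithmetic only. Mitochondrial genes were 15 genes on the RefSeq mitochondrial sequence, matched by gene ID. Of 27179 features, 1314 had no gene symbol (1.74% of UMIs in Ehf_KO and 1.36% in WT); they stayed in the totals.

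The cells, the gene lists and the comparisons were chosen with earlier results of these data known. Named genes were the 30 with the highest ratio over other barcodes, the 8 highest and 8 lowest Ehf_KO over WT without milk protein genes, Ehf, the genes of the rule, and in each list the members with the most UMIs or a defining member at 0. Some further members were named after their values were seen, with their list's count beside them. No doublet caller was run and doublets were kept. Alternatives left out endothelial barcodes with at least 4 of 9 genes of another cell type. Others changed the rule, the filters, the scaling, the weights, the minimum count and the libraries used.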

Additional observations from a re-analysis of the deposited data

How the results depend on the processing

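The median log2 ratio of endothelial genes outside the rule ran from 7.53 (genes with at least 100 UMIs) to 8.95 over 14 alternatives, and that of capillary genes from 6.51 to 9.63. Genes at least 4-fold higher numbered 817 with at least 100 UMIs per gene. All endothelial barcodes that stayed had capillary genes (100%) with at least 5 rule genes, with at least 2000 UMIs or in Ehf_KO alone. The share of barcodes with pericyte genes was 4.55% after thinning to 1000 UMIs. Of the results recomputed, leaving out all 4 other-cell kinds moved 34, reversed 2 and kept 38. Ehf_KO alone moved 25 and kept 41, equal weight per cell moved 23 and kept 52, and requiring 3 rule genes moved 1 and kept 86.

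Leaving out barcodes with epithelial genes put the WT share at 0.522%. Leaving out those with pericyte, fibroblast or myeloid genes put the shares at 0.214% in Ehf_KO and 0.349% in WT, and leaving out all 4 kinds, chosen after seeing the data, at 0.198% in Ehf_KO and 0.316% in WT. In the same order, genes at least 2-fold higher in Ehf_KO over WT numbered 31, 26 and 19, and lower ones 37, 34 and 24, with fewer genes tested. Scaling outside milk protein genes gave 33 higher genes, and leaving out the WT barcode with the most UMIs, also chosen after seeing the data, gave 35. The Ehf_KO over WT ratio of Calcrl turned to -0.38 without barcodes with pericyte, fibroblast or myeloid genes and to -0.58 without all 4 kinds, where that of Plet1 turned to 0.0042. The cause was not tested. No paired analysis was possible because each genotype is 1 library.

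Depth limits the rarer genes: in 24 Ehf_KO barcodes a floor of 3 counts is 12.5 CPM. Intervals cover counting error and not the spread between animals.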
